A study of Mus musculus with 10 samples.

Results

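The TIE receptors, their angiopoietin ligands and 2 receptors shared with endothelium were read across mouse long-term hematopoietic stem cells that differ in surface neogenin-1 (NEO1). The set held 6 genes: the receptor genes Tek and Tie1, the ligand genes Angpt1 and Angpt2, the phosphatase gene Ptprb and the receptor gene Kdr. All 6 were found by symbol among the 24544 genes of the deposited count table. The set was chosen by name with earlier results of these libraries in view, among them a higher count of Tek in NEO1+ cells. The differences between the groups are therefore given for the members as a description, with no test.

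TIE2, the product of Tek, is a receptor tyrosine kinase of endothelial and blood stem cells, and angiopoietin-1, the product of Angpt1, is its activating ligand. In bone marrow this pair is known for holding stem cells in quiescence and in contact with their niche. Angiopoietin-2 mostly opposes angiopoietin-1 in endothelium, TIE1 is a related receptor that modulates TIE2, VE-PTP (Ptprb) removes phosphate from TIE2, and KDR (also called FLK1) is the main receptor of the endothelial growth factor VEGF-A.

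The cells came from the bone marrow of Hoxb5-mCherry mice, a reporter strain for Hoxb5, at 2 to 3 months of age. The groups were 5 libraries of NEO1+Hoxb5+ and 5 of NEO1-Hoxb5+ cells. Both passed one gate, with no lineage markers, cKIT+, SCA1+, CD150+, CD48-, FLK2- and CD34-, and both were Hoxb5+. Each library held 250 to 500 cells pooled from 2 mice. None of the 6 products was used in the gate; FLK2 is the product of Flt3 and not of Kdr. No treatment or further genetic change is given by the labels.

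Library totals ran from 21.2 to 38.9 M counts (M, mega). Kit, Ly6a (SCA1) and Slamf1 (CD150), which define the gate, were present in all 10 libraries, at 392 to 574, 145 to 218 and 54.1 to 107 CPM (the count divided by the TMM-scaled library size in M). Of the genes whose products were gated as negative, Cd34 was at 48.6 to 115 CPM in the 10 libraries, a range like that of Slamf1, and Cd48 did not exceed 8.69 CPM. Flt3 (FLK2) did not exceed 4.78 CPM in the NEO1+ group and was at 0, 7.68, 0.474, 24.0 and 30.0 CPM in NEO1- libraries 1 to 5, so NEO1- libraries 4 and 5 held the most transcript of a protein they were sorted to lack. Hoxb5 was low, between 2.45 and 4.91 CPM in the NEO1+ group and between 0 and 2.43 CPM in the NEO1- group. The transcript of the sorted protein, Neo1, lay between 48.6 and 64.8 CPM in NEO1+ libraries 1, 2, 3 and 5 but at 12.5 CPM in NEO1+ library 4, which lay within the NEO1- range of 4.56 to 18.9 CPM. The library labelled NEO1+ 4 thus went against its label for this transcript, and values without it are given below.

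On GRCm38 (GENCODE M21), the protein-coding gene Tek lies at chr4:94739289-94874976 on the + strand and Tie1 on the same chromosome at chr4:118471191-118490061 on the - strand. Kdr is at chr5:75932827-75978458 (-), Angpt1 at chr15:42424723-42676977 (-), Angpt2 at chr8:18690263-18741562 (-) and Ptprb at chr10:116275523-116389535 (+). Tek, Tie1 and Kdr overlap no other annotated gene. Angpt2 lies within the span of Mcph1 on the other strand, Angpt1 overlaps the antisense gene Gm17473, and Ptprb overlaps the same-strand genes Gm47625 and Gm26495. Overlap was read for whole gene spans and not for exons, and whether the counting used strand is not given in the sources used here. Counts of Angpt1, Angpt2 and Ptprb may therefore include reads of the overlapping genes, which was not examined.

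The stretch just before the start of Tek is shown because Tek was the member whose values did not overlap between the groups. It is the 250 bases before the RefSeq start on GRCm38.p6, read 5′ to 3′ on the strand of the gene, with the core letters of ETS factor motifs (GGAA, or TTCC on the other strand) in capitals.
Tek, chr4:94739039-94739288 (+): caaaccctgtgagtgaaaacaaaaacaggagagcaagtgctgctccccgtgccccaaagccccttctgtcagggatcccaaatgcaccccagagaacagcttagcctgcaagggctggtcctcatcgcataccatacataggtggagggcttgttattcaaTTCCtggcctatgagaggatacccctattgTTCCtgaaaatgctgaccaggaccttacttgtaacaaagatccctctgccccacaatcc
The window held 2 such matches, where the median over 32851 promoter windows of the same length was 3 and 93.4% held at least 1. The longer letters AGGAAG, which contain GGAA, a GATA motif (AGATAA) and a FOXO motif (TGTTTAC) were not in the window on either strand, and 29.5%, 9.99% and 3.17% of all windows held them. These matches describe letters and not sites of binding. For Tie1 the annotations place the start differently: 212 of the 250 bases before its RefSeq start lie in an exon of the gene in GENCODE, so that window is not shown.

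Tek was higher in every NEO1+ library than in any NEO1- library. Its level was 50.1, 55.3, 40.2, 35.8 and 32.7 CPM in NEO1+ libraries 1 to 5 and 18.7, 8.90, 14.4, 20.2 and 13.3 CPM in NEO1- libraries 1 to 5. The lowest NEO1+ value, in library 5, stood above the highest NEO1- value, in library 4. The means were 42.9 ± 9.58 and 15.1 ± 4.52 CPM (SD, n = 5 each), a ratio of 2.84, and the log2 fold change fitted by edgeR was 1.50 (SE 0.28). These values rested on 1044 to 2163 counts per NEO1+ library and 190 to 666 per NEO1- library. The lowest value, 8.90 CPM from 190 counts, had a 95% Clopper-Pearson interval of 7.68 to 10.3 CPM, so counting error was well below the gap between the groups. Reads were counted without molecular identifiers, and such intervals and all floors cover counting error only.

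The library labelled NEO1+ 4 kept Tek on the NEO1+ side, at 35.8 CPM, although its Neo1 did not. Without that library the log2 fold change of Tek was 1.56, and leaving out any 1 of the 10 libraries gave 1.36 to 1.63. Leaving out the libraries of highest Flt3, NEO1- 4 or NEO1- 5, gave 1.63 or 1.46. After subtracting each group's mean, Tek and Neo1 had a correlation of 0.08 over the 10 libraries, which share their depth and preparation. Measures of the libraries themselves also moved with the groups. NEO1+ libraries had 12800 to 13808 genes with a count and NEO1- libraries 11477 to 13147, and Rn45s, the ribosomal RNA precursor, took 27.9 to 37.7% and 30.7 to 42.4% of counts. With the number of detected genes as a covariate the log2 fold change of Tek was 1.47, and with Rn45s removed it was 1.50. Over the whole table that covariate lowered the genes at an unadjusted p under 0.05 in edgeR from 806 to 277, with 0 called in either fit. Bulk libraries cannot tell fewer Tek-expressing cells from less Tek RNA per cell.

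**Figure D1:**
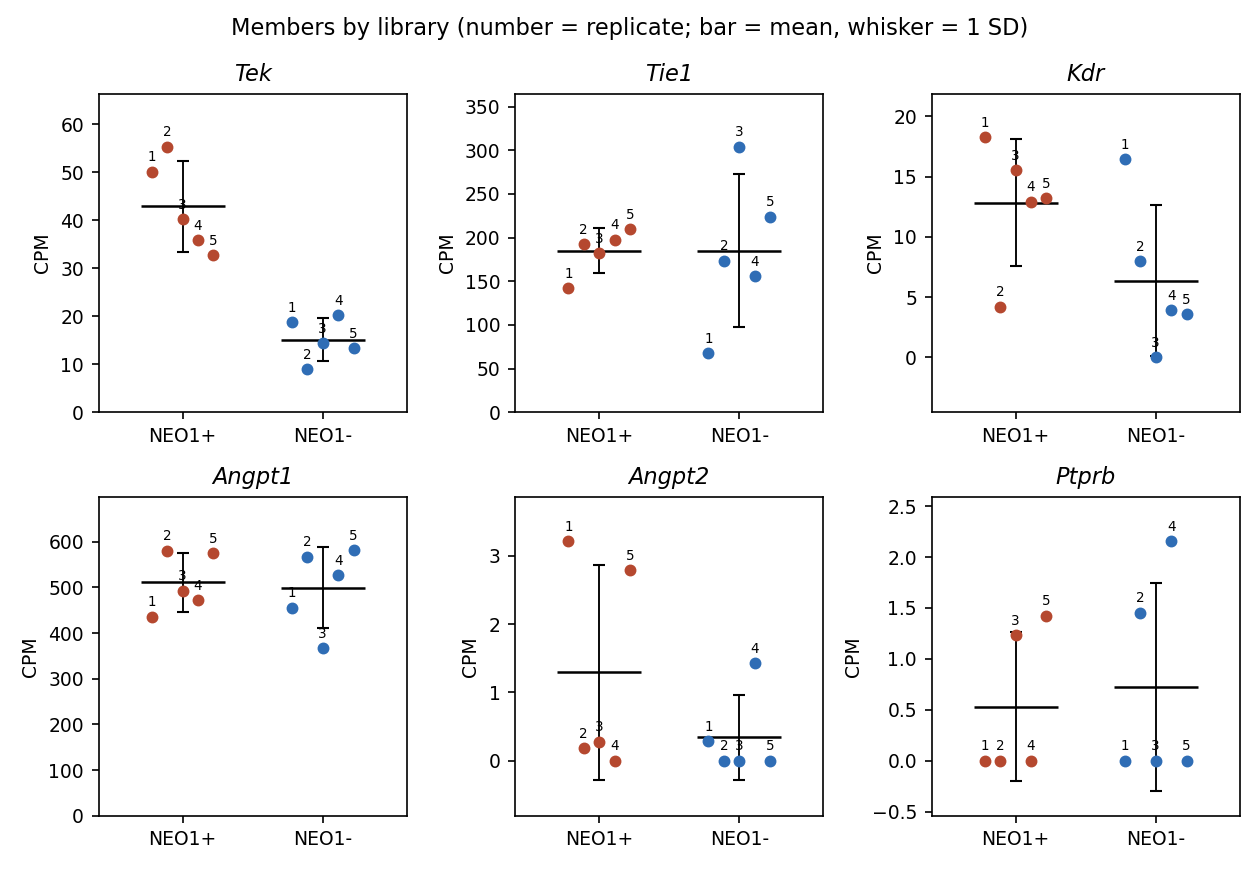
Levels of the 6 genes in CPM (y axis, a separate linear scale per gene) in the 5 NEO1+ and 5 NEO1- libraries. Points are libraries with their replicate number, bars are means and whiskers 1 SD. The Tek points of the groups do not overlap (32.7 to 55.3 against 8.90 to 20.2 CPM), while those of the other 5 genes do.

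Across all 12203 genes tested, edgeR's quasi-likelihood test with Benjamini-Hochberg adjustment called 0 (0%), so none of the 4 members it tested was among its calls. Neo1, the transcript of the sorted protein, was not called by edgeR either, at a log2 fold change of 2.16 (SE 0.47). DESeq2 gave Neo1 an adjusted p of 0.0017. The common biological coefficient of variation in edgeR was 0.72. A gene not called by edgeR is therefore not read as a gene without a difference, here or in the lists below. At an unadjusted p under 0.05 edgeR held 3.11% of genes as higher and 3.49% as lower in NEO1+. DESeq2 called 0.616% higher and 0.383% lower at an adjusted p under 0.05, out of the 14606 genes to which it gave one. Among the 6 members DESeq2 called Tek as higher and no other. Over the 12203 genes tested by edgeR, 1.35% had every NEO1+ value above every NEO1- value and 1.13% the reverse. Of the 4 tested members Tek had every NEO1+ value above every NEO1- value, and Tie1, Kdr and Angpt1 overlapped. Since Tek was part of the reason for choosing the set, nothing is read from these counts.

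Tie1, the paralog of Tek, had the same mean in both groups but a different spread. It was at 142, 192, 182, 198 and 210 CPM in NEO1+ libraries 1 to 5 and at 67.5, 173, 304, 156 and 224 CPM in NEO1- libraries 1 to 5. The NEO1- libraries held both the lowest value (library 1) and the highest (library 3), and the NEO1+ values lay between them. The means were 185 ± 25.9 and 185 ± 87.3 CPM (SD, n = 5 each), with a log2 fold change of 0.00 (SE 0.29). As a share of the mean, the SD was 14.0% in NEO1+ and 47.2% in NEO1- libraries. The other tested members were also more spread in NEO1- libraries. Their shares in NEO1+ and NEO1- libraries were 22.3% and 29.9% for Tek, 12.6% and 17.8% for Angpt1 and 41.2% and 98.7% for Kdr. Spread over all genes was not compared between the groups, so a wider spread is not read as particular to Tie1. The fold change ranged from -0.21 to 0.25 as 1 library was left out, the ends falling without NEO1- library 1 and without NEO1- library 3.

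Kdr, the VEGF receptor, was low and varied most among the tested members. It was at 18.2, 4.20, 15.5, 12.9 and 13.2 CPM in NEO1+ libraries 1 to 5 and at 16.4, 7.96, 0, 3.89 and 3.57 CPM in NEO1- libraries 1 to 5. The groups overlapped, since NEO1+ library 2 was low and NEO1- library 1 high for their groups. NEO1- library 3 had 0 counts, which allows up to 0.102 CPM (3 counts). The means were 12.8 ± 5.28 and 6.37 ± 6.29 CPM (SD, n = 5 each), and the log2 fold change of 1.01 had an SE of 0.995, about as large as the difference. It was 0.69 without NEO1- library 3 and 1.73 without NEO1- library 1, 1.64 with detected genes as a covariate, and 2.47 by limma-voom.

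Angpt1, the ligand gene, had the highest counts of the set and lay in nearly the same range in both groups. It was at 435, 580, 493, 472 and 576 CPM in NEO1+ libraries 1 to 5 and at 455, 567, 367, 527 and 582 CPM in NEO1- libraries 1 to 5. NEO1- library 3 was lowest, and the other 9 libraries were interleaved. The means were 511 ± 64.3 and 499.6 ± 88.8 CPM (SD, n = 5 each), with a log2 fold change of 0.03 (SE 0.13), or -0.13 with detected genes as a covariate.

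Angpt2 and Ptprb were near the limit of detection and did not pass the filter on low counts, so the fit gave them no fold change. Angpt2 had 67, 7, 12, 0 and 96 counts in NEO1+ libraries 1 to 5 and 9, 0, 0, 47 and 0 counts in NEO1- libraries 1 to 5. Its highest level was 3.22 CPM, in NEO1+ library 1, and the groups overlapped. Ptprb had 53 and 49 counts in NEO1+ libraries 3 and 5, 31 and 71 counts in NEO1- libraries 2 and 4, and 0 in the other 6 libraries. In the libraries with a 0 for either gene, that count allowed up to 0.0768 to 0.144 CPM depending on the library, so Ptprb was not detectable in 6 of 10 libraries at this depth.

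Per kilobase of annotated exon the mean levels of the 6 genes had the same order in both groups. In NEO1+ libraries Angpt1 was at 98.2 ± 12.3 CPM per kb, Tie1 at 37.6 ± 5.26, Tek at 9.10 ± 2.03 and Kdr at 1.42 ± 0.58 (SD, n = 5 each), and no 2 neighbours in that order overlapped. In NEO1- libraries they were at 95.98 ± 17.1, 37.6 ± 17.8, 3.21 ± 0.96 and 0.705 ± 0.696 CPM per kb (SD, n = 5 each), again without overlap between neighbours. Angpt2 followed at 0.350 ± 0.426 and 0.0930 ± 0.168 CPM per kb, and Ptprb at 0.0399 ± 0.0548 and 0.0541 ± 0.0765 CPM per kb, for NEO1+ and NEO1- libraries (SD, n = 5 each). The ranges of Angpt2 and Ptprb overlapped each other in both groups. Those of Angpt2 and Kdr overlapped as well, since the lowest Kdr values lay below the highest Angpt2 values. These were 0.465 and 0.872 CPM per kb in NEO1+ and 0 and 0.387 CPM per kb in NEO1- libraries.

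Ratios of raw counts within a library do not depend on how libraries are scaled; they were not divided by gene length and are compared only between libraries. There were 8.69 to 17.6 Angpt1 counts for each Tek count in NEO1+ libraries (median 12.2) and 24.4 to 63.7 in NEO1- libraries (median 26.0). These ranges did not overlap. There were 2.83 to 6.40 Tie1 counts for each Tek count in NEO1+ libraries (median 4.53) and 3.61 to 21.1 in NEO1- libraries (median 16.8), which overlapped through NEO1- library 1. Angpt1 counts for each Tie1 count, at medians of 2.75 and 3.27, ran from 2.39 to 3.07 in NEO1+ and from 1.21 to 6.74 in NEO1- libraries, so the range of this ratio was narrow in NEO1+ libraries and wide in NEO1- libraries. The parting of the groups in the first ratio restates the difference in Tek.

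**Figure D2:**
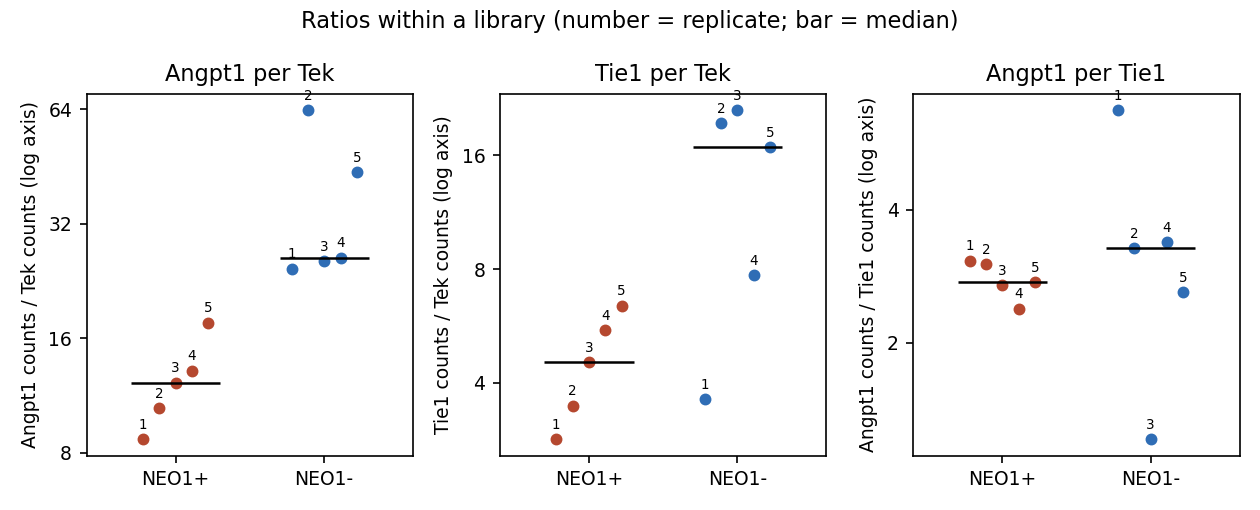
Ratios of raw counts between members within each library (y axes, log scale) for Angpt1 over Tek, Tie1 over Tek and Angpt1 over Tie1. Points are libraries with their replicate number and bars are medians. NEO1+ libraries hold 8.69 to 17.6 Angpt1 counts per Tek count and NEO1- libraries 24.4 to 63.7.

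Within the groups, correlations between the members had no common sign. After subtracting group means from log2 CPM, the correlation over the 10 libraries was -0.41 between Tek and Tie1, -0.24 between Tek and Angpt1, -0.06 between Tek and Kdr and 0.00 between Tie1 and Angpt1. Angpt1 and Kdr had 0.48, which rests largely on NEO1- library 3 (lowest Angpt1, no Kdr count). Tie1 and Kdr had -0.75, in which NEO1- library 3 (highest Tie1, no Kdr count) and NEO1- library 1 (lowest Tie1, highest Kdr of its group) stand at opposite ends. All of these share the libraries and their depth and are given as a description.

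**Figure D3:**
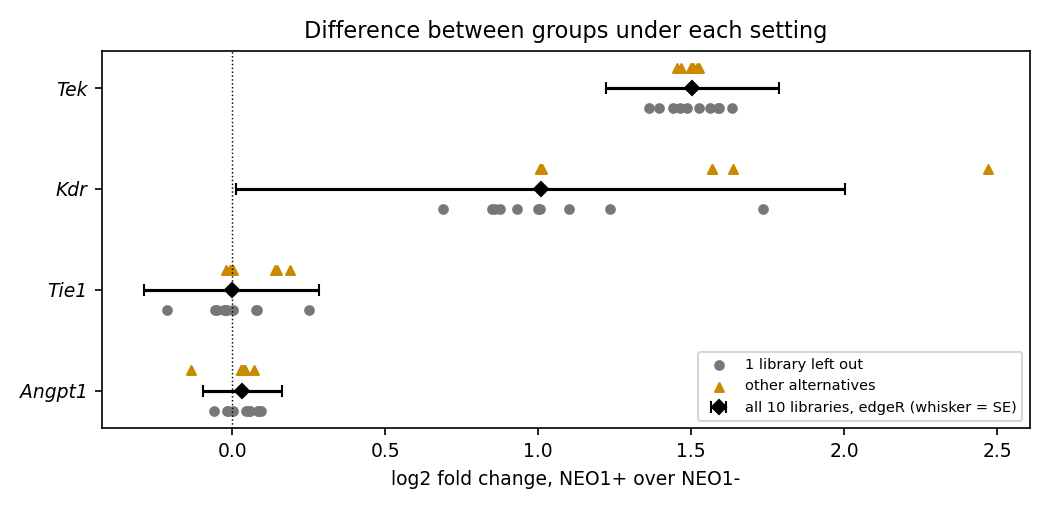
Log2 fold change of NEO1+ over NEO1- libraries (x axis) for the 4 members that were tested. Diamonds are the edgeR fit on all 10 libraries with its SE, circles the fits without 1 library and triangles the other alternatives. Tek stays between 1.36 and 1.63, whereas Tie1 and Angpt1 lie on both sides of 0 and Kdr spreads from 0.69 to 2.47.

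Other genes of the pathway were read from 6 lists of 75 genes by role, of which 65 were tested. By edgeR 0 of 65 passed an adjusted p of 0.05 in either direction. At an unadjusted p under 0.05 in edgeR 4 were higher and 1 lower, where the shares over all genes tested were 3.11% and 3.49%. DESeq2, which fitted 73 of the 75, called 2 higher and 0 lower, where its shares over all genes were 0.616% and 0.383%. The median log2 fold change of the 65 was 0.13, with 44 above 0 and 21 below, beside a median of 0.01 and 51.0% above 0 over all genes tested. P-values here measure the spread between these libraries, and the labels do not say whether NEO1+ and NEO1- libraries share mice.

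Ligands, cofactors and sheddases of TIE2 numbered 7 tested of 8, with 0 called and a median of 0.39. The list holds the integrin subunits that bind angiopoietins or associate with TIE2 and the proteases that cut TIE receptors from the cell surface. Angpt4, the remaining angiopoietin, was not tested, with a mean of 0.139 CPM in NEO1+ libraries and no count in the others. Itgb1, the beta-1 integrin, averaged 181 ± 24.8 and 166 ± 27.3 CPM (SD, n = 5 each, NEO1+ first here and below). Svep1, which encodes a matrix protein that binds TIE1, had the highest fold change of the list, 2.06, with an SE of 1.75 and means of 3.44 ± 3.04 and 0.822 ± 1.18 CPM (SD, n = 5 each).

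Adaptors and intracellular signalling genes numbered 22 tested of 24, with 0 called and a median of 0.05. Akt1, the kinase through which TIE2 signals survival, averaged 251 ± 20.7 CPM in the NEO1+ group against 187 ± 45.9 CPM in the other (SD, n = 5 each). Its log2 fold change of 0.43 (SE 0.16) did not pass in edgeR (adjusted p 0.624), and the ranges of 216 to 269.8 and 111 to 224 CPM overlapped. Rasa1, a GTPase-activating protein of RAS, averaged 74.1 ± 13.4 and 91.8 ± 25.0 CPM (SD, n = 5 each); its log2 fold change was -0.31 (SE 0.21; adjusted p 0.892 in edgeR).

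Of 16 transcription factors of stem and endothelial cells, all tested, 0 were called and the median was 0.18. The ETS factors Fli1 and Erg, which bind endothelial and stem cell enhancers, averaged 154 ± 13.9 and 142 ± 21.4 CPM, and 52.3 ± 4.45 and 44.1 ± 6.91 CPM (SD, n = 5 each). Etv6, an ETS repressor, stood at a log2 fold change of -0.22 (SE 0.16; adjusted p 0.900 in edgeR). Foxo1, a factor that AKT keeps out of the nucleus, averaged 73.0 ± 14.9 and 73.3 ± 20.9 CPM (SD, n = 5 each).

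Other VEGF receptors and ligands were mostly low: 4 of 9 were tested, with 0 called, and Flt1, which encodes VEGF receptor 1, did not exceed 1.05 CPM in any library. Vegfb and Vegfc were the ligands present, at 31.4 ± 12.2 and 33.9 ± 6.83 CPM, and 21.6 ± 13.6 and 25.0 ± 14.8 CPM (SD, n = 5 each). Of 10 genes tied to quiescence 9 were tested, 0 were called and the median was 0.06. Of these 9, 5 had a log2 fold change above 0 and 4 below. Cdkn1c, the cell cycle inhibitor p57, averaged 230.0 ± 35.2 and 187 ± 28.6 CPM (SD, n = 5 each). Its log2 fold change was 0.30 (SE 0.14, adjusted p 0.757 in edgeR), and its ranges of 178 to 266 and 140 to 214 CPM overlapped. Cdkn1b, another cell cycle inhibitor of the list, lay the other way at -0.41 (SE 0.48, adjusted p 0.985 in edgeR). Myc, which drives growth and exit from quiescence, was at 261 ± 46.8 and 365 ± 94.0 CPM (SD, n = 5 each); its log2 fold change was -0.48 (SE 0.17; adjusted p 0.586 in edgeR).

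Genes known to be shared by endothelial and stem cells numbered 7 tested of 8. None passed in edgeR, the median was 0.23, and DESeq2 called 2 of them higher in NEO1+, Selp and Vwf. Selp, the adhesion receptor P-selectin, was at 35.2 ± 7.70 and 8.18 ± 3.99 CPM (SD, n = 5 each), with a log2 fold change of 2.10 (SE 0.37) and adjusted p values of 0.140 in edgeR and 8.83e-06 in DESeq2. Vwf, von Willebrand factor, was at 101 ± 24.2 and 58.9 ± 12.9 CPM (SD, n = 5 each), with a log2 fold change of 0.78 (SE 0.20) and adjusted p values of 0.368 and 0.0447. Both are also platelet genes, and both were known to differ in these libraries when the list was written, so they are not independent evidence. Eng, Esam and Procr, which encode the stem cell surface proteins endoglin, ESAM and EPCR, were not called by either tool. They averaged 433 ± 39.3 and 395 ± 42.2 CPM, 179.7 ± 11.2 and 150.2 ± 32.6 CPM, and 127 ± 15.8 and 142 ± 28.3 CPM (SD, n = 5 each).

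**Figure D4:**
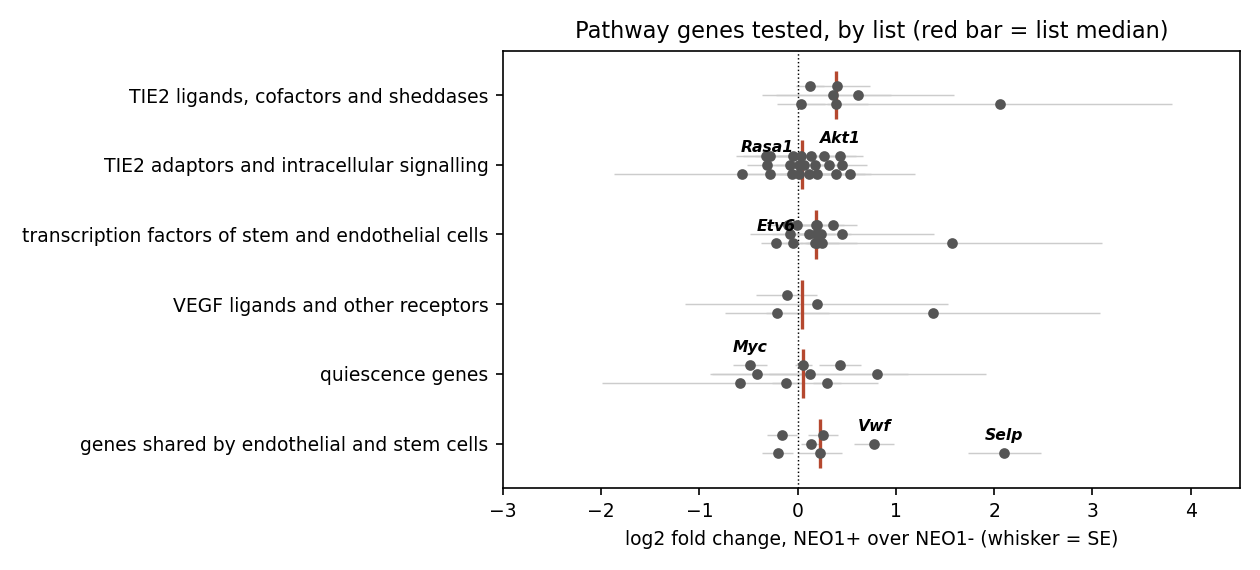
Log2 fold change of NEO1+ over NEO1- libraries (x axis) with its SE for the 65 tested pathway genes, by list (y axis); red bars are list medians, and vertical position within a list has no meaning. Selp, at 2.10, lies apart from the other genes of its list, and the list medians run from 0.04 to 0.39.

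Tek, Tie1, Kdr and Ptprb are endothelial genes as well, so markers of endothelium and of other marrow cells were read in the same libraries. The defining endothelial gene Cdh5 (VE-cadherin) had 0 counts in all 10 libraries, as had Stab1, Lyve1, Mmrn2 and Aplnr. The 16 endothelial markers summed to 189 to 233 CPM in the NEO1+ group and to 115 to 198 CPM in the other, with 8 higher and 3 lower in the NEO1+ mean and 5 at 0 throughout. The sum came mainly from Emcn, Pecam1, Robo4, Ecscr, Sox18 and Cldn5. Its part in the Tek values was not tested.

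Stromal markers, of interest because marrow stroma also makes Angpt1, summed to 5.02 to 44.7 CPM in the NEO1+ group and to 0 to 21.2 CPM in the other, with Lepr, Col3a1, Dcn and Lum at 0 in all 10. NEO1- library 3 had no count of any of the 11 stromal markers and the lowest Angpt1 of the 10 libraries, 367 CPM. The highest stromal sum, 44.7 CPM in NEO1+ library 3, stood beside an Angpt1 of 493 CPM. The highest Angpt1, 582 CPM in NEO1- library 5, stood beside a stromal sum of 8.17 CPM. The part of stromal cells in the Angpt1 values was not tested. Of the 8 megakaryocyte markers 3 were higher and 4 lower in the NEO1+ mean, with sums of 75.7 to 141 and 64.9 to 126 CPM, and Gp6 was at 0. Granulocyte and monocyte markers summed to 160 to 4039 and 146 to 2725 CPM, erythroid markers to 6.52 to 326 and 8.44 to 202 CPM and lymphoid markers to 40.9 to 57.9 and 32.4 to 83.5 CPM, in NEO1+ and NEO1- libraries. All of these ranges overlapped.

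Proliferation markers were higher in NEO1+ libraries, as Tek was. Their 12 genes, among them Mki67, Top2a and Cdk1, were all higher in the NEO1+ mean and summed to 283 to 506 CPM in the NEO1+ group and to 69.0 to 213 CPM in the other, without overlap. Within the groups the order matched that of Tek only in part. NEO1+ library 5 and NEO1- library 2 were the lowest of their groups for both. The highest proliferation sums were in NEO1+ library 3 and NEO1- library 3, and the highest Tek in NEO1+ library 2 and NEO1- library 4. The part of proliferating cells in the Tek difference was not tested.

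**Figure D5:**
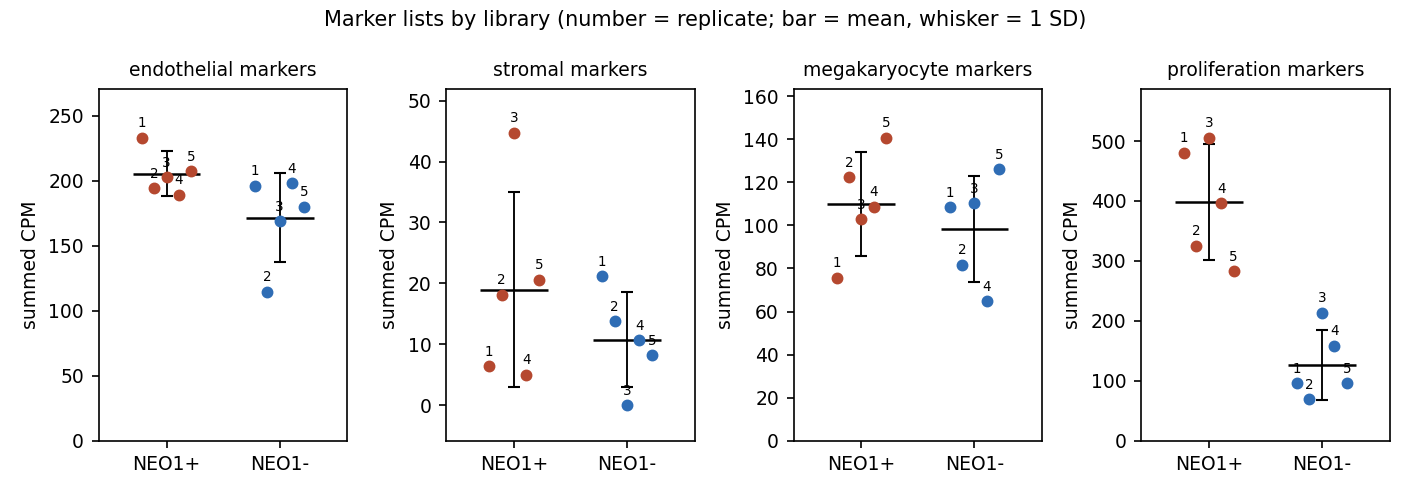
Summed CPM of endothelial, stromal, megakaryocyte and proliferation markers (y axes) in the 5 NEO1+ and 5 NEO1- libraries. Points are libraries with their replicate number, bars are means and whiskers 1 SD. The proliferation sums do not overlap between the groups (283 to 506 against 69.0 to 213 CPM), and the other 3 do.

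The genes whose log2 CPM followed Tek most closely over the 10 libraries were Rab23, Setbp1, Olfm1, Tnfaip8l1 and Nrd1, with Pearson r of 0.96, 0.95, 0.94, 0.93 and 0.93. After subtracting group means the r values were 0.86, 0.84, 0.64, 0.56 and 0.88. These genes were picked as the highest among all genes tested, over the same libraries. Both sets of r values are therefore raised by that choice and were not tested. Rab23, a small GTPase of vesicle traffic, was at 23.4 ± 9.51 and 6.23 ± 2.50 CPM, and Nrd1, a metalloprotease gene, at 88.2 ± 15.9 and 54.5 ± 15.3 CPM (SD, n = 5 each). Setbp1, Olfm1 and Tnfaip8l1 were below 5 CPM in the mean of either group. In NEO1- libraries they averaged 0.376, 0.0243 and 0.0486 CPM, so their pattern rests on few counts in that group. By Spearman rho 2 of these 5, Setbp1 and Olfm1, were again among the 5 most alike.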

How the data were processed

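RNA of sorted cells was made into libraries by Smart-seq2 with oligo-dT priming and 18 cycles of PCR, and 40 ng of cDNA went into Nextera tagmentation, per the labels' protocols. The authors deposited raw counts per gene symbol for 10 libraries, which were used for all results. They also deposited log2 values of size-factor normalized counts, which were not used here. The submitters' processing notes name bcl2fastq 2.18, STAR 2.4, DESeq2 1.22.2 and mm10; the annotation, the counting tool and its strand setting are not given in the sources used here.

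Genes were tested in R 4.3.3 by the robust quasi-likelihood fit of edgeR 4.0.16, after TMM scaling and filterByExpr, which kept 12203 of 24544 genes, with Benjamini-Hochberg adjustment over all of them and a threshold of 0.05. CPM use TMM-scaled sizes, log2 CPM a prior count of 2, and the SE was taken as the size of the log2 fold change divided by √F. DESeq2 1.42.0 and limma-voom (limma 3.58.1) were among the alternatives. The edgeR, DESeq2, limma-voom and blocked edgeR fits were run on simulated data, and the other alternatives, blocked DESeq2 among them, were not. Exon lengths and positions are from GENCODE M21 and promoter windows from RefSeq, which held 3 of the 6 members.

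The members, the pathway lists, the marker lists and the tests were chosen with earlier results of these data known. Named were the 6 members, Neo1, the 3 pathway genes of smallest edgeR p in each direction (none having passed) and the 5 genes most like Tek; other genes were chosen after their values were seen. No 2 libraries of a group agreed within sampling noise (chi-square per degree of freedom of at least 86.7).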

Additional observations from a re-analysis of the deposited data

Results flagged for a closer look

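Of 12 groups of 5 values (6 genes in 2 groups, on the log2 CPM scale), 2 had 1 library that stood apart from the rest by more than Dixon's test allows at its 95% level; chance gives about 1 in 20, or 0.6 here. Both were in Kdr. NEO1+ library 2 was at 2.09 log2 CPM and the other NEO1+ libraries between 3.70 and 4.19. NEO1- library 3 was at -3.98 log2 CPM, which stands for 0 counts, and the other NEO1- libraries were between 1.86 and 4.04.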

How the results depend on the processing

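The Tek difference kept its sign and moved by less than the spread between replicates in all 18 alternatives, from 1.36 to 1.63, as did Kdr, from 0.69 to 2.47 (its SD between libraries being wide). Leaving out 1 library can hardly move a group mean by its SD. Where the groups do not overlap, as for Tek, it cannot turn the sign either. The fits without 1 library are therefore given as values and not as support. Tie1, at 0.00, changed sign in 8 of 18: 0.0027 with no filter on low counts, 0.14 with the replicate block in both edgeR (0.145) and DESeq2 (0.140), 0.19 with limma-voom, and -0.21 to 0.25 without 1 library. Angpt1, at 0.03, changed sign in 4 of 18: -0.13 with a covariate for detected genes, and -0.060 to 0.094 without 1 library. Genes called over the whole table numbered 0 in edgeR, 2 with no filter, 2 with limma-voom, 146 by DESeq2, 742 by blocked DESeq2, and 0 to 1 without 1 library. Pathway genes called numbered 0 in edgeR, 2 of 73 by DESeq2 and 5 of 73 by blocked DESeq2, all of them higher in NEO1+. Over the 15684 genes fitted, DESeq2 called 90 higher and 56 lower, and blocked DESeq2 called 577 higher and 165 lower. The 5 calls therefore come from a fit that called many more genes as higher than as lower, and nothing is read from them. The cause of the differences between fits was not tested. Deviations of same-numbered libraries correlated at 0.00 to 0.04. Libraries of unlike number were not compared, so these values cannot say whether the numbers pair libraries. Library 3 had the highest granulocyte and monocyte sum of both groups (4039 CPM in NEO1+ and 2725 CPM in NEO1-). Its stromal sum was the highest in NEO1+ (44.7 CPM) and the lowest in NEO1- (0 CPM). The main fit used no pairing, and edgeR with the block called 0 genes. The median of all genes, 0.01, was 0.10 with the block in edgeR, 0.13 with the block in DESeq2 and 0.12 in limma-voom without it. A prior count of 0.5 changed no sign of a member's difference in mean log2 CPM.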

Other observations

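Endothelial genes other than the 6 members differed in which group held more of them, given here as values chosen after they were seen. Cldn5, the tight junction protein claudin-5, averaged 21.9 ± 7.33 CPM in the NEO1+ group and 5.96 ± 4.28 CPM in the other (SD, n = 5 each), with ranges of 15.0 to 33.4 and 0.468 to 12.0 CPM that did not overlap. Sox18, an endothelial transcription factor, was at 31.2 ± 10.3 and 16.0 ± 8.18 CPM, and Pecam1, the adhesion molecule CD31, at 36.3 ± 7.58 and 19.4 ± 19.6 CPM (SD, n = 5 each). Robo4, a guidance receptor of endothelium and stem cells, lay the other way, at 46.7 ± 9.16 and 69.4 ± 26.2 CPM (SD, n = 5 each), with overlapping ranges. Emcn and Ecscr, at 37.9 ± 11.9 and 33.1 ± 8.24 CPM and at 28.1 ± 8.27 and 25.3 ± 4.65 CPM (SD, n = 5 each), differed by less than their SD.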
